A study of Homo sapiens with 2 samples.

Results

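The forkhead transcription factor genes were described across 2 human cell lines by where open chromatin was found at and around them. Members were all genes of the autosomes that RefSeq lists as protein-coding in GRCh38.p14 and whose symbol is FOX, a class letter from A to S and a number, with or without a further letter or L and a number. The rule found 48 genes in 19 classes, of 19126 protein-coding genes on the autosomes. Open chromatin had been mapped by ATAC-seq, in which a transposase inserts sequencing adapters into accessible DNA, here with a Tn5 enzyme purified by the submitters and 50000 cells per reaction. J76 is a T cell leukemia line, a Jurkat subline without a T cell receptor of its own. The other line, named T293 in the labels and 293T here, comes from human embryonic kidney. The labels give no treatment or genotype for either line. Each had 1 library and 1 peak list, so no difference between the lines had a replicate check and no p-value was computed. Fewer peaks in a list and less signal per site cannot be told apart without read counts, and depth was unknown.

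Forkhead factors bind DNA through a conserved winged-helix domain. The FOXA factors can engage DNA wrapped in nucleosomes and act early in the formation of gut, liver and lung. FOXC, FOXD, FOXF and FOXL1 work in mesoderm, neural crest and mesenchyme, FOXO factors respond to insulin and growth factor signals and restrain the growth of resting lymphocytes, FOXM1 drives mitotic genes, FOXJ1 builds motile cilia, and FOXP1 keeps T cells quiescent.

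As a check of the labels at gene ends, the 7 T cell markers examined (among them CD3E, CD2 and LCK) had a peak in J76 only and the 6 epithelial and kidney markers (among them KRT8, CAV1 and WT1) in 293T only. Of the 3 B cell markers 0 had a peak in either line. CSF1R and ITGAM, 2 of 3 myeloid markers, had a peak in 293T only, and of 2 hepatocyte markers APOA1 had a peak in both and ALB in neither. The lists held 59631 peaks in J76 and 85597 in 293T, with a median width of 370 and 365 bp and a median fold of 4.83 and 4.38. The fold is the authors' enrichment over background at the peak summit, and it describes a peak within its own list. Folds of the 2 lines are printed side by side, but their difference was not tested. Among all genes with a peak within 1 kb of an end in both lines, the J76 fold was higher at 6879 and the 293T fold at 4848. Among forkhead genes it was 19 and 9. The −log10 q is the authors' significance of a peak. A 300-base promoter window was overlapped by a peak at 60.9% of 15101 promoters in J76 and 66.5% in 293T, and at 2.83% and 3.28% when the windows were moved by 10 kb, which is why positions are given as GRCh38.

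RefSeq promoter sequence was matched for 37 of the 48 members. Those without an entry include FOXA2, FOXC2, FOXE3, FOXF1, FOXH1, FOXJ1, FOXL1, FOXM1, FOXN2 and FOXS1. The 250 bases before the annotated start are shown for 4 members that differ in base composition and in peaks, with capitals marking the GC box (GGGCGG, or CCGCCC on the other strand) and the CCAAT box (CCAAT or ATTGG); the FOXP2 window holds neither. FOXK2 had a peak over its promoter in both lines, FOXI3 and FOXF2 had it in 293T only, and FOXP2 had a peak over this internal promoter in 293T only.
FOXK2, chr17:82519482-82519731, plus strand: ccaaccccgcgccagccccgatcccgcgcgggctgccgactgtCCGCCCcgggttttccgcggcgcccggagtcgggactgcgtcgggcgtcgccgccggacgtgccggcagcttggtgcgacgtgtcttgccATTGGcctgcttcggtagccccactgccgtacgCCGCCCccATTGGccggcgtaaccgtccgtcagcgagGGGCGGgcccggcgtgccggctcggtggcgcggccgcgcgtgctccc
FOXI3, chr2:88452694-88452943, minus strand: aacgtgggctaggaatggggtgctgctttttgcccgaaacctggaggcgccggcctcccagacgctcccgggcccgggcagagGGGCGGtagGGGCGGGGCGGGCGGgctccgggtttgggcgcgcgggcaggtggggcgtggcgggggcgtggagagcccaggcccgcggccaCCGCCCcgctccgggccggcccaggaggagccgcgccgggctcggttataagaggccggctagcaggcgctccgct
FOXF2, chr6:1389326-1389575, plus strand: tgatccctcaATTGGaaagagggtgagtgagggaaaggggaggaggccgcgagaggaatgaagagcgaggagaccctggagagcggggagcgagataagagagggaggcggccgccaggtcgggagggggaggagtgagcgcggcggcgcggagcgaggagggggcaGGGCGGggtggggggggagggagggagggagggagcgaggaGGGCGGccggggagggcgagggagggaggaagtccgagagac
FOXP2, chr7:114414565-114414814, plus strand: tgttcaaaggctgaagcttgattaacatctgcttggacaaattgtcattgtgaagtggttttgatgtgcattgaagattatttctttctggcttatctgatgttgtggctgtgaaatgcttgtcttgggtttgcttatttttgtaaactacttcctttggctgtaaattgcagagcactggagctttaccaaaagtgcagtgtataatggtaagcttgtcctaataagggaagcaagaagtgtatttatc

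The first 3 of these windows are dense in CpG and the FOXP2 window is not. The ratio of observed to expected CpG over the 300-base promoter was 1.19 for FOXK2, 0.869 for FOXI3, 0.957 for FOXF2 and 0.095 for FOXP2. The median was 0.811 over the 37 forkhead promoters and 0.767 over all 15101. It was 0.889 in the 19 forkhead promoters overlapped by a peak in both lines and 0.596 in the 14 overlapped in neither, against 0.870 and 0.264 over all promoters, so the forkhead promoters without a peak over the window had the higher median. Some of those 14 belong to genes with a peak elsewhere within 1 kb of a gene end, such as FOXJ3 and FOXB2 in both lines. Those 14 ran from 0.216 at FOXD4L1 to 0.920 at FOXL3, and without FOXD4 and its copies 8 were left, with a median of 0.730. The GC box was found in 28 of 37 forkhead promoters (75.7%, against 58.9% of all), and the CCAAT box in 10 (27.0%, against 36.0%). The TATA box (TATAAA, either strand) was found in 4 (10.8%, against 9.71%), of which 3 belonged to FOXD4 copies. The forkhead motif itself (TGTTTAC, or GTAAACA on the other strand) was found in 0 of 37, against 2.64% of all promoters.

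At gene ends the family had peaks in both lines about as often as other genes, and the share with a peak in 293T alone was higher. A boundary peak here is a peak that overlaps the stretch from 1 kb before to 1 kb after either end of a gene. In both lines such a peak was found at 28 of the 48 members (58.3%, 95% Wilson interval 44.3 to 71.2, against 61.3% of all protein-coding genes). In 293T only it was found at 10 members (20.8%, 11.7 to 34.3, against 8.89%), and in J76 only at 2 (4.17%, against 3.92%). The remaining 8 had none (16.7%, 8.70 to 29.6, against 25.8%). These intervals cover counting error only. With the same number of peaks taken from each list, 7 of 48 members were in 293T only, against 7.64% of all genes, the 3 FOXD4 copies described further on having lost their peak. Nuclear receptor genes, another large family of regulators, stood nearby at 8 of 46 in 293T only (17.4%), and HOX genes at 11 of 39 (28.2%), and the difference between the families was not tested.

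**Figure D1:**
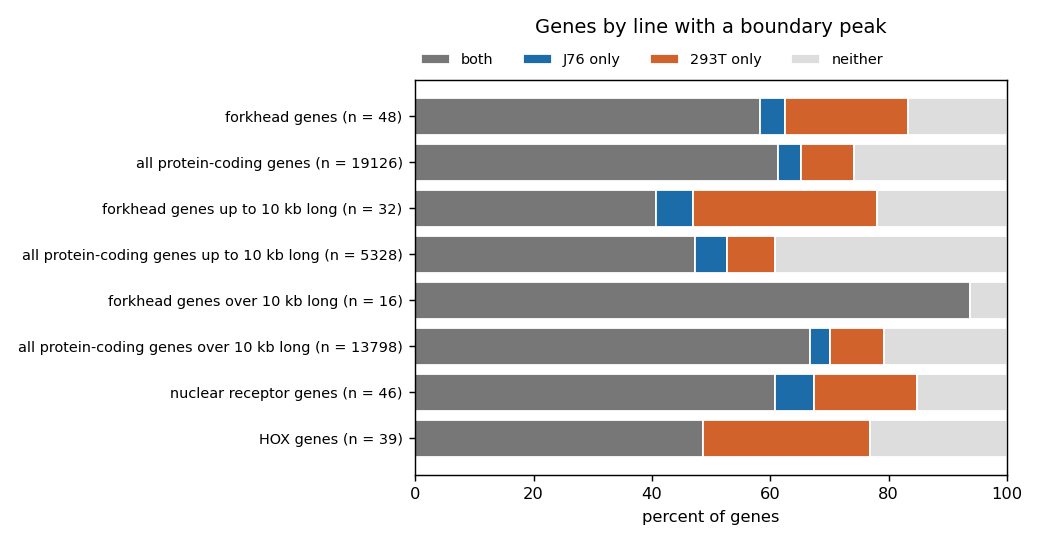
Percent of genes (x axis) by the line or lines that had a boundary peak, stacked from both through J76 alone and 293T alone to neither, for the forkhead genes, all protein-coding genes, both split at a length of 10 kb, and 2 other families (rows, with n). The 293T-only share is 31.3% in forkhead genes up to 10 kb long and 0 in the longer ones.

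All 12 line-only members were at most 10 kb long. Among the 32 members up to 10 kb long, 13 were open at their ends in both lines (40.6%). A 293T-only peak was found at 10 (31.3%), a J76-only peak at 2, and no peak at 7. All protein-coding genes of that length stood at 47.3% for both lines, 8.05% for 293T alone, 5.50% for J76 alone and 39.2% for neither. Among the 16 members over 10 kb, 15 had one in both lines (93.8%, against 66.8% of all genes over 10 kb), and the other, FOXN1, a regulator of the thymic epithelium, had none.

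**Figure D2:**
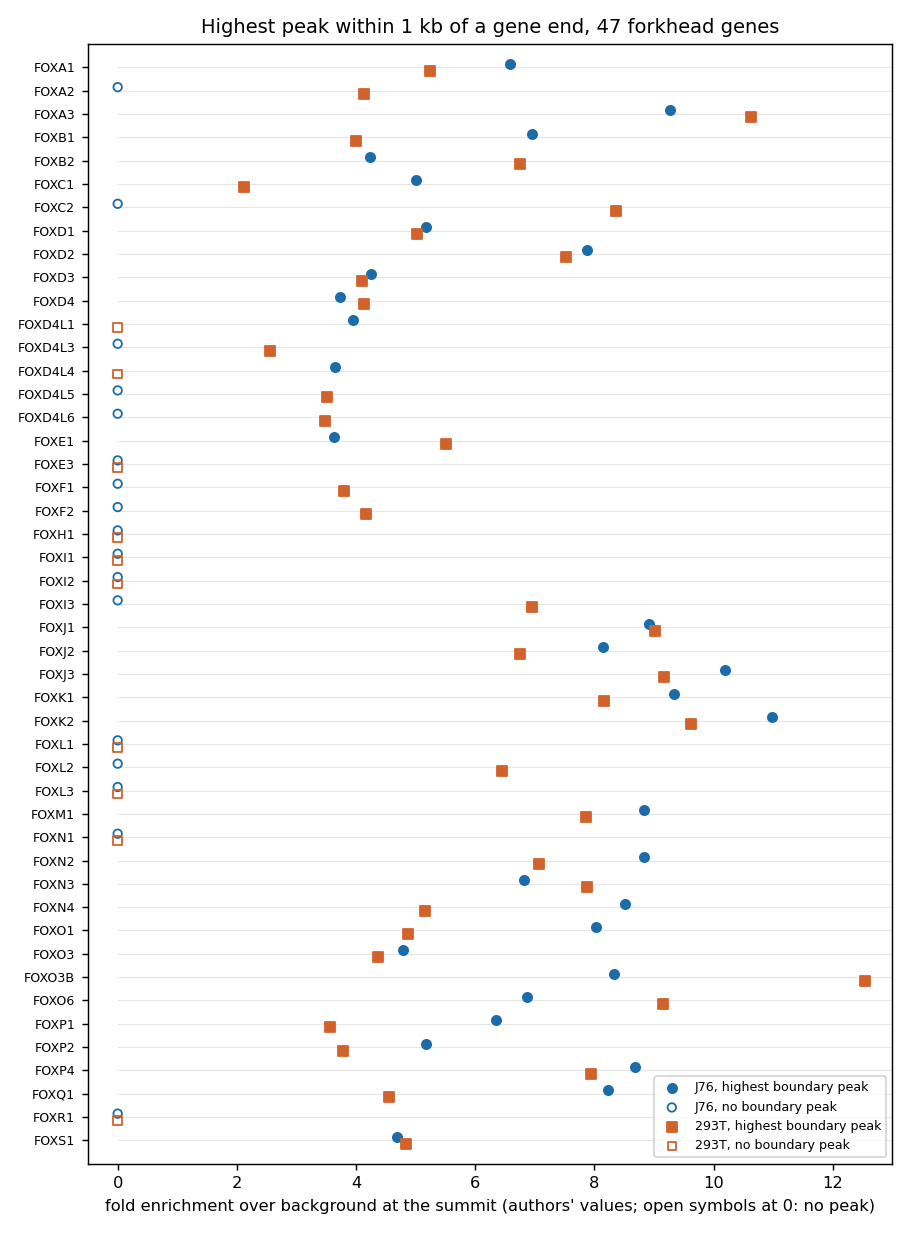
Fold enrichment of the highest boundary peak (x axis, authors' linear ratio) for 47 of the 48 forkhead genes (rows) in J76 (circles) and 293T (squares); open symbols at 0 stand for no boundary peak. The FOXJ, FOXK, FOXO and FOXP rows carry filled symbols of both kinds, whereas the FOXF pair is filled for 293T only.

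The FOXO, FOXK and FOXM1 genes, all over 10 kb long, had peaks in both lines, as did 66.8% of all genes of that length. FOXO1, a brake on growth that insulin signalling removes, had a peak of fold 8.03 in J76 and 4.88 in 293T, FOXO3 of the same class 4.79 and 4.36, and FOXO6 6.88 and 9.15. The highest FOXO3 peaks lay at different ends of the gene; at the start of FOXO3 the 293T fold was 2.75. FOXO3B, a FOXO3 copy, had 8.33 and 12.5, at an end it shares with ZNF286B, so that peak is not assigned to it. FOXK1 (9.33 in J76 and 8.16 in 293T) and FOXK2 (11.0 and 9.62), regulators of glucose use and autophagy, had some of the highest folds in the family. FOXM1 had 8.82 and 7.86, at an end shared with RHNO1. The FOXJ class was also complete, with FOXJ3 at 10.2 and 9.17, FOXJ1 at 8.92 and 9.02 (near RNF157) and FOXJ2 at 8.14 and 6.76. Every member of the O, K, M and J classes thus had a boundary peak in each line.

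The lymphoid and neural FOXP genes followed the same pattern at their ends. FOXP4 had boundary peaks of 8.67 in J76 and 7.95 in 293T, FOXP1 of 6.35 and 3.57, and FOXP2, known for its part in speech circuits, of 5.17 and 3.77. Of the FOXN class, FOXN2 had 8.83 and 7.07, FOXN3, a repressor that acts in the cell cycle, 6.82 and 7.87, and FOXN4 8.52 and 5.15, the last with MYO1H within 2 kb.

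Of the FOXA class, which acts in endoderm, FOXA1 and FOXA3 had peaks in both lists. FOXA1 had 6.59 in J76 and 5.23 in 293T, with TTC6 within 2 kb. FOXA3 had 9.26 and 10.6, with SYMPK within 2 kb and the summits 1087 and 1093 bp before its start. Over that start the FOXA3 peaks had folds of 3.56 in J76 and 3.88 in 293T. FOXA2 had a peak in 293T only, of fold 4.14 and −log10 q 11.4 (chr20:22584100-22585360). The nearest J76 peak lay 106260 bp from its ends. FOXF1 and FOXF2, factors of gut and lung mesenchyme, were in 293T only, with folds of 3.80 and 4.17 and −log10 q of 30.1 and 33.2. The FOXF1 peak (chr16:86509409-86510855) covered the lower-coordinate end of the gene, where FENDRR also ends within 2 kb. FOXF2 had 3 boundary peaks in 293T, from fold 2.83 to 4.17, and its nearest J76 peak was 7293 bp away.

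On chromosome 16, FOXF1, FOXC2 and FOXL1 lie in a row. FOXC2, needed for lymphatic vessels, had the highest fold among the 293T-only boundary peaks, at 8.36 and −log10 q 35.3 (chr16:86566622-86567603), with FOXC2-AS1 ending within 2 kb. FOXL1 had no boundary peak, the nearest 293T peak being 1945 bp and the nearest J76 peak 14337 bp from its ends. A similar row on chromosome 6 holds FOXQ1, FOXF2 and FOXC1. Here FOXQ1 was open at its ends in J76 (8.23) as well as 293T (4.56), and so was FOXC1, a factor of eye and vessel development (5.01 and 2.13). The FOXC1 value for 293T comes from beyond the far end of the gene; at the start the 293T fold was 1.95, with a −log10 q of 11.5.

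Other 293T-only members included FOXI3 and FOXL2. FOXI3, which acts in ear and tooth development, had a peak of fold 6.95 and −log10 q 50.6 over its start (chr2:88451813-88453319), while the nearest J76 peak lay 95491 bp away. FOXL2, which maintains the ovary, had 2 peaks, the higher of fold 6.45 (chr3:138944789-138945322), inside the gene and toward its far end. Of the 9 FOXD genes, 4 had a peak in each list (FOXD4 among them, with peaks that do not overlap), and so did both FOXB genes. FOXD2 had 7.87 in J76 and 7.53 in 293T, FOXD1, a marker of kidney stroma progenitors, 5.17 and 5.02, and FOXD3 4.26 and 4.10. FOXB1 had 6.96 and 4.00 toward its far end, and 4.02 in J76 and 3.70 in 293T at its start. FOXB2 had 4.24 and 6.74. FOXE1, a thyroid factor, counted as both, but its J76 peak (3.63, −log10 q 4.25) and its 293T peak (5.51) did not overlap. FOXS1 had a peak of 4.68 and 4.84, the J76 one 981 bp from the gene, with DUSP15 within 2 kb. The 8 members with no boundary peak were FOXE3, FOXH1, FOXI1, FOXI2, FOXL1, FOXL3, FOXN1 and FOXR1.

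Copies of FOXD4 made up both J76-only calls and 3 of the 10 calls in 293T only. FOXD4 itself had peaks of 3.73 in J76 and 4.14 in 293T that did not overlap. FOXD4L1 (3.95) and FOXD4L4 (3.64) were in J76 only, and FOXD4L6 (3.47), FOXD4L5 (3.51) and FOXD4L3 (2.55) in 293T only. The −log10 q of these 5 calls ranged from 2.69 to 7.46, below that of every other line-only member. FOXD4 and FOXD4L6 are shown because their promoters are nearly the same; capitals mark the bases that differ between them in a global alignment.
FOXD4, chr9:118418-118667, minus strand: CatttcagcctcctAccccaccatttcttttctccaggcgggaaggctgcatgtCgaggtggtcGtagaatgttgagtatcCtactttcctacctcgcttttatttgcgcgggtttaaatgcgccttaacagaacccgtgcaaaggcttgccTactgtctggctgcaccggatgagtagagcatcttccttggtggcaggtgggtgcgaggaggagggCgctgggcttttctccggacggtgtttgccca
FOXD4L6, chr9:41128682-41128931, minus strand: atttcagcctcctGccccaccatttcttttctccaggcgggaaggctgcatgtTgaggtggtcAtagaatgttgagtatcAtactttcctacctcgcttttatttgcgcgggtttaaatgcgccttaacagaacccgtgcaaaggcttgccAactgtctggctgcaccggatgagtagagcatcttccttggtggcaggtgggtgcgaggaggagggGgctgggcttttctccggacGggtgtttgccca

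Over the 300-base windows these copies differed at 6 bases and by 1 gap in each, an identity of 97.3%. The annotated starts of the other copies differ, so their windows align less well, though FOXD4L3 and FOXD4L4 shared an unbroken run of 215 bases. A short read from such sequence may not be placed in a given copy, and how reads with several matches were treated was not stated, so peaks at these genes are uncertain. Without FOXD4, its 5 copies and FOXO3B, 41 members were left, of which 26 were open at their ends in both lines and 8 in neither. Then 7 counted for 293T only (17.1%, 8.53 to 31.3, an interval that takes in the 8.89% of all genes) and 0 for J76 only, which allows a share of up to 8.57%. With peaks under a −log10 q of 10 dropped, all 5 copies lost their peak and FOXD4 and FOXE1 became 293T only, which left 9 members in 293T only, where 8.45% of all genes then stood, and 0 in J76 only.

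Boundary peaks of the family were often wider in 293T, as were those of other genes. With a peak in both lines, the widest 293T peak was the wider at 22 of 28 members and at 8276 of 11732 of all genes. Among the 28 members with a peak in both lines, the widest 293T peak was at least 1.5 times as wide as the widest J76 peak at 11 (39.3%, 23.6 to 57.6, against 15.4% of all genes with peaks in both). The reverse held at 0 of 28, against 3.88%. By length, a 293T peak at least 1.5 times as wide was found at 7 of 13 members up to 10 kb (53.8%, against 16.0%). Over 10 kb it was found at 4 of 15 (26.7%, 10.9 to 52.0, against 15.3%). FOXQ1, an epithelial regulator, had peaks of 913 bp in J76 and 2549 bp in 293T, and peaks covered 12.9% and 70.2% of the gene. FOXO1 had 1718 and 3153 bp, FOXP2 1909 and 3258 bp, and FOXD3 839 and 1790 bp. Each width is that of the widest called peak alone, so a stretch called as several peaks counts as narrower. At FOXD3 a further J76 peak of 504 bp overlapped the same 293T peak, and at FOXO1 a further J76 peak of 524 bp did. At FOXK2 (1382 and 994 bp) and FOXJ1 (862 and 578 bp) the J76 peak was the wider. In FOXD4 and FOXE1 no boundary peaks of the lines overlapped. Some pair of boundary peaks overlapped at 26 of the 28 members and at 98.9% of all genes with a peak in both. The widest peaks, whose widths are compared, did not overlap at FOXC1 (779 and 1115 bp) and FOXN3 (737 and 1040 bp) either. Over the start of FOXN3 the peaks were 737 bp in J76 and 740 bp in 293T. Over those 26 the wider 293T peaks were 9 (34.6%, against 15.2%). Nuclear receptor genes stood at 7 of 28 (25%) and HOX genes at 11 of 19 (57.9%). FOXA1 lay just past the limit, with 1145 and 1718 bp. Depth was unknown and could not be set beside these widths.

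**Figure D3:**
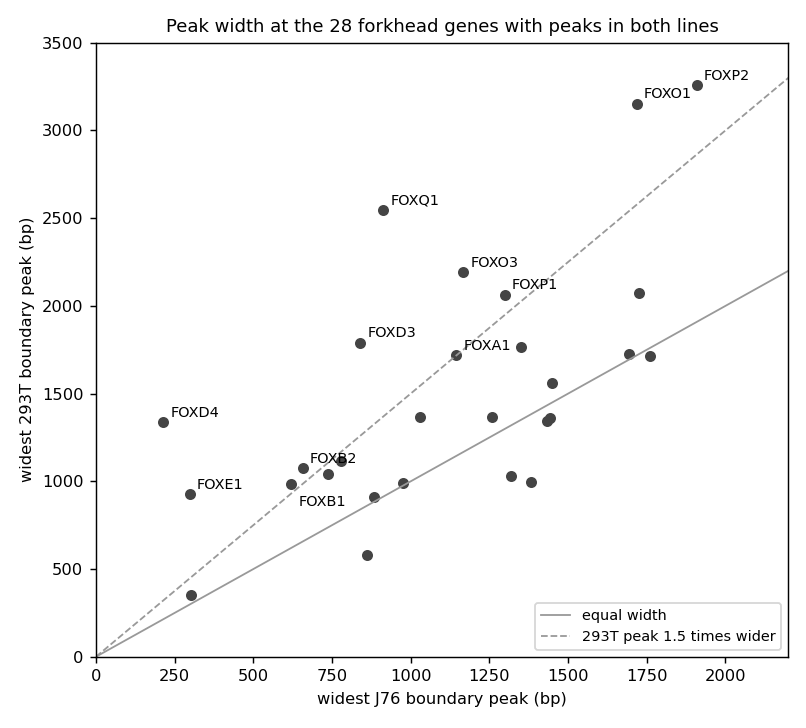
Width in bp of the widest boundary peak in J76 (x axis) and in 293T (y axis) at the 28 forkhead genes with a peak in both lines; each point is a gene, the solid line is equal width and the dashed line a 293T peak 1.5 times as wide. The 11 named genes lie on or above the dashed line, and FOXD4 and FOXE1 among them compare peaks that do not overlap.

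Members with more 293T-only than J76-only distal peaks made up a larger share than among all genes, though the interval of that share reaches almost to the background. These counts overlap with those inside genes given further on. Some peaks are counted both as boundary and as distal, such as the FOXF2 peak of fold 4.17. A distal peak has its summit over 1 kb from every protein-coding gene end, and it was counted within 50 kb of a member's ends. Around the 48 members there were 55 distinct distal peaks in J76 that did not overlap a 293T peak, 117 in 293T that did not overlap a J76 peak, and 74 J76 peaks shared with 293T. In the whole lists the line-only distal peaks numbered 26678 and 51392, so the balance of line-only peaks around the family as a whole was near that of the lists. Shared distal peaks numbered 19908 in the whole J76 list. They were thus fewer than the J76-only ones there, but more numerous than the J76-only ones around the family. Counted by gene, 30 members had more 293T-only than J76-only distal peaks (62.5%, 48.4 to 74.8, against 48.1% of all genes), and 10 had fewer (20.8%, 11.7 to 34.3, against 31.4%). Of the 32 members up to 10 kb long, 22 had more in 293T (68.8%, against 39.6%) and 4 fewer (12.5%, against 34.0%). Of the 16 over 10 kb, 8 had more (50%, against 51.4%) and 6 fewer (37.5%, against 30.5%). More in 293T was found at 25 of 46 nuclear receptor genes (54.3%) and 37 of 39 HOX genes (94.9%). Neighbouring members such as FOXD2 and FOXE3 share peaks and are not independent. When the same number of peaks was taken from each list, 60 J76-only, 76 293T-only and 69 shared peaks were counted around the family. The whole lists then had 28767 J76-only and 28441 293T-only. That number was 58730, the length of the J76 list on the autosomes and X, so J76 peaks left without a 293T partner counted as J76-only. Then 22 members (45.8%, against 32.0% of all genes) had more in 293T and 16 (33.3%, against 44.1%) more in J76.

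**Figure D4:**
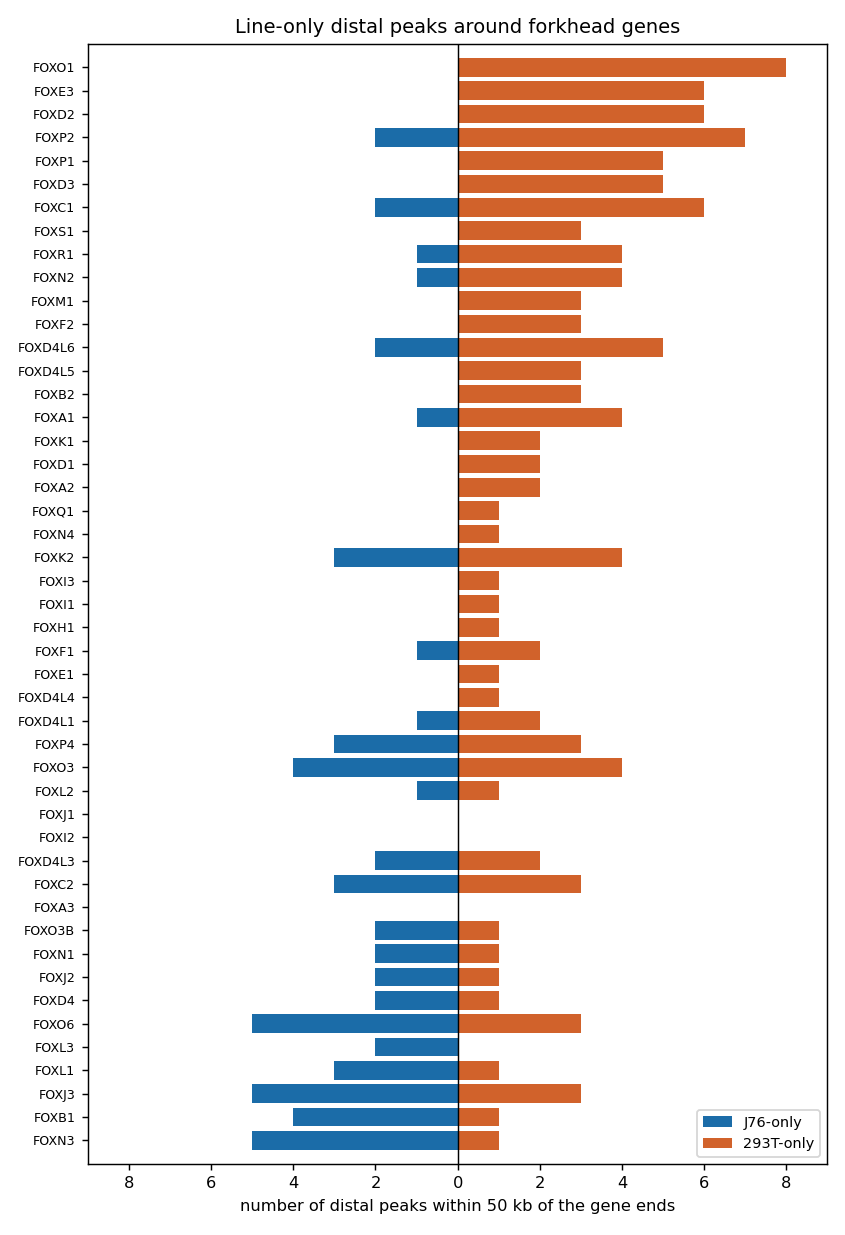
Number of J76-only (bars to the left) and 293T-only (bars to the right) distal peaks within 50 kb of the ends of 47 of the 48 forkhead genes (rows), ordered by the difference. FOXO1 has 0 and 8 and FOXN3 has 5 and 1.

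The members at the ends of this order were few. FOXO1 had 0 J76-only and 8 293T-only distal peaks, the strongest of fold 6.55 lying 5970 bp from the start (chr13:40672451-40672963). FOXD2 and FOXE3, which lie side by side on chromosome 1, each had 0 and 6. FOXP2 had 2 and 7, FOXP1 0 and 5, FOXD3 0 and 5, and FOXC1 2 and 6. The other way, FOXN3 had 5 J76-only and 1 293T-only peaks, FOXB1 4 and 1, and FOXJ3 5 and 3, with a FOXJ3 peak of fold 8.75 among them (chr1:42157572-42158072). FOXA3, FOXI2 and FOXJ1 had 0 and 0. The number of peaks in the surrounding region moved with some of these counts and not with others. In the 10 Mb around the gene 293T had 3.71 times as many peaks as J76 at FOXD3, 2.56 at FOXP2, 2.17 at FOXP1 and 2.11 at FOXO1, against a median of 1.18 over all genes and 1.17 over the 48 members. At FOXD2 and FOXE3 the ratio was 1.61 and 1.62. FOXN2, at 2.66, had 1 J76-only and 4 293T-only distal peaks, and FOXI1, at 2.53, had 0 and 1. The part of these regional ratios in the counts was not tested.

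Several long forkhead genes held many line-only peaks, on different sides. Peaks with a summit over 1 kb from both ends of a gene were counted as lying in its body. FOXP1, which spans 629 kb, held 38 293T-only and 8 J76-only peaks, besides 6 293T peaks shared with J76. FOXP2, of 607 kb, held 26 293T-only peaks and 0 in J76. FOXN3, of 463 kb, went the other way, with 13 J76-only and 9 293T-only peaks. FOXO1 held 5 293T-only and 0 J76-only, and FOXJ3 1 and 5. These counts grow with gene length, so genes of 80% to 125% of the length of each are the background. Among 177 such genes for FOXP1 the median was 9 293T-only and 3 J76-only peaks, and 2 genes had 38 or more in 293T. Among 189 for FOXP2 the medians were the same, 26 genes had as many 293T-only peaks or more and 18 had 0 in J76. Among 310 for FOXN3 the median was 3 in J76, and 7 genes had 13 or more. The FOXO1 count of 5 or more in 293T was reached by 238 of 1446 genes of like length, of which 582 had 0 in J76. The FOXJ3 count of 5 or more in J76 was reached by 85 of 1071.

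The strongest peaks in these gene bodies differed in place. In FOXP1 the highest 293T-only peaks had folds of 9.21 (chr3:71531089-71531704) and 8.85 (chr3:71542397-71542994), 52616 and 41217 bp from the gene's 5′ end, and the highest J76-only peak had a fold of 7.16 and lay 139487 bp from that end (chr3:71443950-71445283). In FOXP2 the highest was 7.68 (chr7:114502215-114503172), beyond the internal promoter printed above. In FOXN3 the highest J76-only peaks had folds of 8.16 (chr14:89510358-89511007) and 7.88 (chr14:89393112-89394003), and the highest 293T-only peak had 6.53 (chr14:89303543-89304468).

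**Figure D5:**
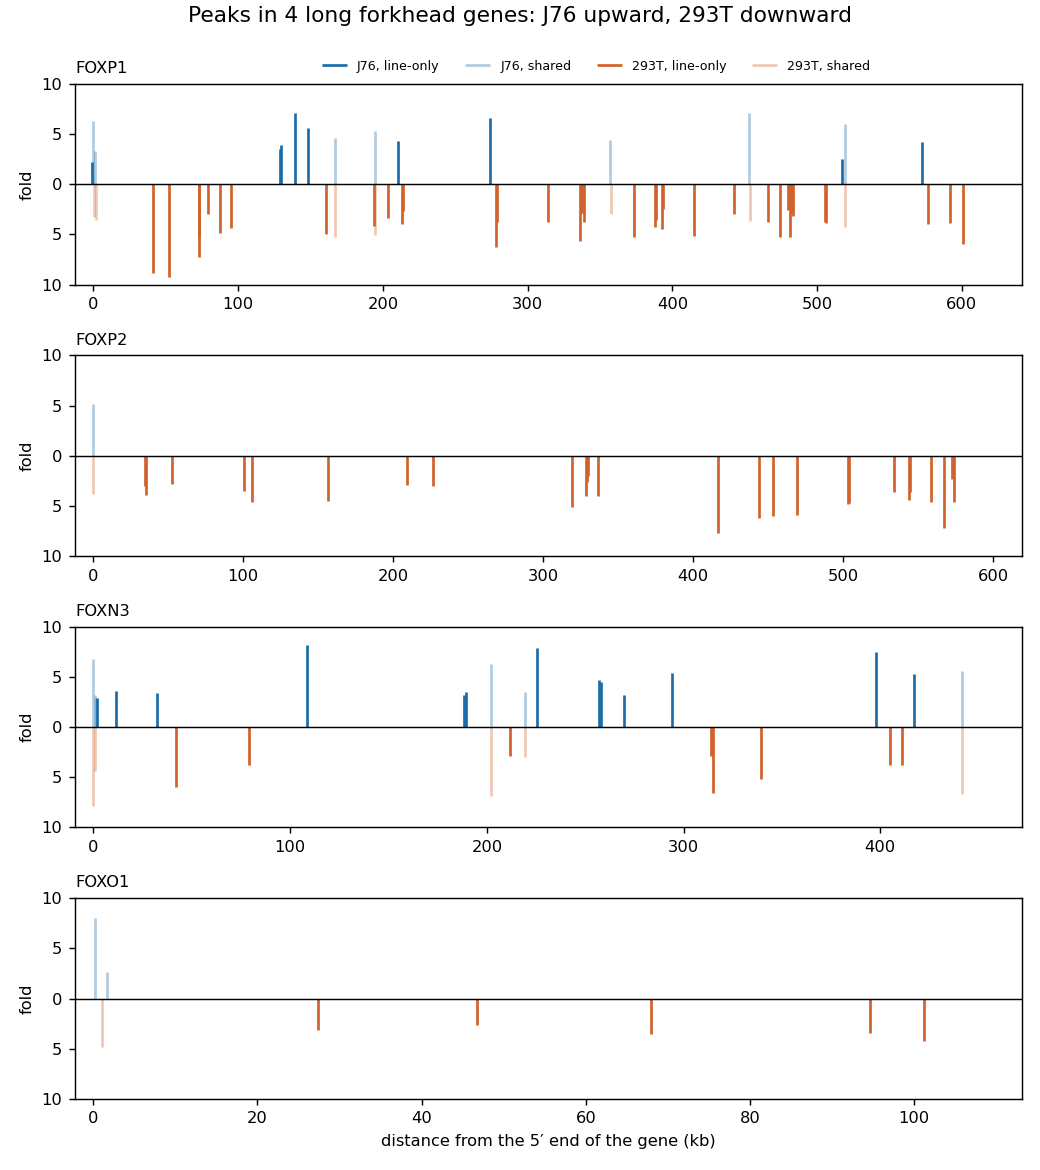
Peaks along FOXP1, FOXP2, FOXN3 and FOXO1 by distance from the gene's 5′ end in kb (x axis), with the authors' fold upward for J76 and downward for 293T (y axis); dark lines are line-only peaks and pale lines peaks shared with the other line. FOXP2 shows J76 signal at its 5′ end alone, while FOXP1 shows 38 293T-only lines and FOXN3 has dark lines of both kinds.

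Genes that act with or downstream of forkhead factors were counted in the same way, to be read against all genes, of which 61.3% had a peak in each line, 25.8% had none, 8.89% had one in 293T alone and 3.92% one in J76 alone. All 18 FOXM1 target genes examined, which serve mitosis, were open at their ends in each line, such as CCNB1 (12.3 in J76 and 14.5 in 293T) and BIRC5 (12.2 and 8.16). Of 36 regulators and cofactors 35 had a peak in each, and SGK1, a kinase that inactivates FOXO factors, had a peak in 293T only (4.59). Of 25 FOXO target genes 19 had a peak in both. IL7R, the receptor by which lymphocytes receive survival signals, was in J76 only (3.97), with 9 J76-only and 0 293T-only distal peaks, and PDK4, which limits glucose oxidation, was in 293T only (8.33). Of 15 FOXA target genes, which serve liver, lung and pancreas, 10 had a peak in neither line and 3 in both. PDX1, a pancreas regulator, was in 293T only (8.82) and TTR in J76 only (3.51). Of 14 cilia genes linked to FOXJ1, 7 had a peak in each line. Those with a 293T peak alone were DNAH5 (11.0), TPPP3 (8.04, with ZDHHC1 within 2 kb) and SPAG6 (5.39). CAPSL had a J76 peak alone (6.25), and 3 had no peak. CAPSL lies near IL7R on chromosome 5 and had 8 J76-only and 1 293T-only distal peaks. Some of these may be counted for both genes.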

How the data were processed

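ATAC-seq was carried out on 1 library each of J76 and 293T, per the labels, and each library gave 1 peak list. The submitters' processing notes list Bowtie2 and MACS2. Their versions, the settings and the build were not given in the sources used here. Per peak, the authors deposited an integer score, a linear fold ratio at the summit, a −log10 p and a −log10 q; no read counts were used, so depth was unknown. Scores and −log10 p were not used further.

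Peaks were joined to 19126 autosomal protein-coding genes of a RefSeq table (GRCh38.p14) in Python 3.11.15 with pandas 2.3.3. Windows were 1 kb around gene ends and 50 kb for distal summits; peaks overlapping by at least 1 bp were shared. Shares carry 95% Wilson intervals (SciPy 1.17.1). Promoters (250 bases before to 50 after the start) are RefSeq's; copies were aligned with Biopython 1.88. The scripts were tested on simulated peaks. The members and the gene lists were chosen with earlier results of these data known. Of 194 list entries 193 were found. All members enter the counts, and 1 is not reported here by itself; values are printed for line-only members, the 10 highest in both lines, the 8 largest distal differences and, per list, up to 4 line-only genes. Other genes were named with their values in view. The alternatives tried were other −log10 q thresholds, equal list lengths, windows, overlaps and distances, gene starts only, and members without near neighbours; leaving out near-identical copies was chosen after seeing the data.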

Additional observations from a re-analysis of the deposited data

How the results depend on the processing

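Of 56 values recomputed under the alternatives, 40 stayed within 1.5 times the reported count and 16 did not. At a −log10 q of at least 5, members with a boundary peak in J76 only came to 1 (against 3.42% of all genes). With only peaks from a −log10 q of 10 upward, they came to 0 (against 3.22% of all genes), members with none to 13 (against 30.8% of all genes), and distal peaks to 30 (J76-only), 52 (293T-only) and 43 (shared). Equal list lengths gave 76 distal 293T-only peaks. With 2.5 kb windows 5 members had no boundary peak (against 19.5% of all genes). Gene starts alone, known for 37 members, gave 6 in 293T only, for which no share over all genes is given here. Distal peaks within 25 kb numbered 33 (J76-only), 72 (293T-only) and 49 (shared), and within 100 kb 104, 197 and 115, as fewer or more peaks lie in reach. Without FOXD4, its copies and FOXO3B, 0 members were in J76 only. No paired analysis was possible because each line had 1 library. Without counts or replicates a missing peak does not show a closed site.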

Other observations

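The forkhead genes of chromosome X lie outside the family as defined here. FOXO4, a FOXO factor, was open at its ends in both, with folds of 6.93 in J76 and 8.25 in 293T. FOXP3, the lineage factor of regulatory T cells, had no boundary peak in either line, and within 50 kb it had 1 distal peak of J76 alone and 2 of 293T alone. FOXR2 had no boundary peak and no line-only distal peak in either line.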
